A study of Mus musculus with 2 samples.

Results

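The mitotic Pax7-positive progenitors are muscle precursor cells that carry RNA of Pax7, the transcription factor of muscle stem cells, together with much RNA of genes used to divide. They were found in 2 single-cell RNA libraries of mouse induced myogenic progenitor cells, 1 from a clone labelled MyoD-WT (WT) and 1 from a clone labelled MyoD-KO (KO). A cell was considered if it had at least 1000 genes detected, at most 15% mitochondrial UMIs, at least 1 UMI of Pax7, at most 1 UMI of Myog, and less than 0.5% of its UMIs in Acta1, Actc1, Myh3, Mylpf and Myl1 together. A UMI is a molecular identifier, so 1 UMI stands for 1 captured RNA molecule. These Pax7 cells were scored by their UMIs of 5 genes (Plk1, Ccnb1, Aspm, Cenpf and Cdc20) per 10000 UMIs, and the members were chosen by that score as the highest 25% within each library. This gave 990 members of 3959 Pax7 cells in WT and 656 of 2623 in KO, together 1646 of 13100 cells that passed the filters and of 15861 barcodes. The other 2969 WT and 1967 KO Pax7 cells served as the comparison within each library.

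The study made both clones from mouse embryonic fibroblasts of the Myod1tm1Jae strain by overexpressing the muscle factor Myf6, and colonies that no longer depended on Myf6 were picked. Both were held in forskolin (5 µM), RepSox (5 µM), CHIR99021 (3 µM) and bFGF (10 ng/mL) and were taken at passage 4. Forskolin raises cyclic AMP, RepSox blocks the TGF-beta receptor, and CHIR99021 activates Wnt signalling by blocking GSK3. With 1 clone and 1 library per genotype, the genotype, the clone and the library cannot be told apart. No p-value is given, since cells are not replicates, and every interval is a 95% counting interval that covers counting error only.

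Skeletal muscle is renewed by satellite cells, which express Pax7, divide as myoblasts with Myf5 and MyoD, and leave the cell cycle when Myog comes on. In a dividing cell, the genes of mitosis are transcribed in the G2 and M phases under the MuvB complex with B-Myb and FoxM1, after the E2F-driven genes of DNA replication have been used in S phase. Cyclin B with Cdk1 starts mitosis, Aurora and Polo kinases build the spindle, kinetochores tie chromosomes to it, and the anaphase-promoting complex (APC/C) ends mitosis by destroying cyclins and securin.

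The members were deeper than the cells they were compared with. Their median depth was 43570 UMIs in WT and 48238 in KO, against 32443 and 35494 UMIs in the other Pax7 cells, and their median number of genes was 6300 and 6947 against 5601 and 6062. The median mitochondrial share differed less, at 6.54% and 7.35% in members against 6.75% and 7.61%. Levels are therefore given as CPM, the UMIs of a gene summed over the cells of a group per 1000000 UMIs of that group, which rest on 43654383 UMIs in WT members and 32733946 UMIs in KO members. Of the barcodes, 14 occurred in both libraries, 3 of them in WT members and 1 in a KO member. Myod1 RNA, the product of the targeted gene, was at 114 CPM in WT members and 46.7 CPM in KO members. The 3' tags may lie outside the deleted part of the allele, whose extent is not given in the sources used here, so this level does not check the label.

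The score ran without a gap across the threshold. The lowest member scored 8.08 and the highest other cell 8.07 in WT, and in KO these were 8.80 and 8.79. In WT 327 cells and in KO 138 cells lay within 10% of the threshold. The median member scored 10.9 in WT and 13.6 in KO, and the median other Pax7 cell 2.18 and 0.868. The KO comparison cells held more cells with no UMI of any of the 5 genes, 552 of 1967 (28.1%), than the WT ones, 342 of 2969 (11.5%). All 5 genes were detected in 95.5% of WT members and 95.1% of KO members, against 25.7% and 19.7% of the other Pax7 cells. Differentiated muscle cells without Pax7 UMIs, 117 in WT and 526 in KO, had a median score of 0.

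**Figure D1:**
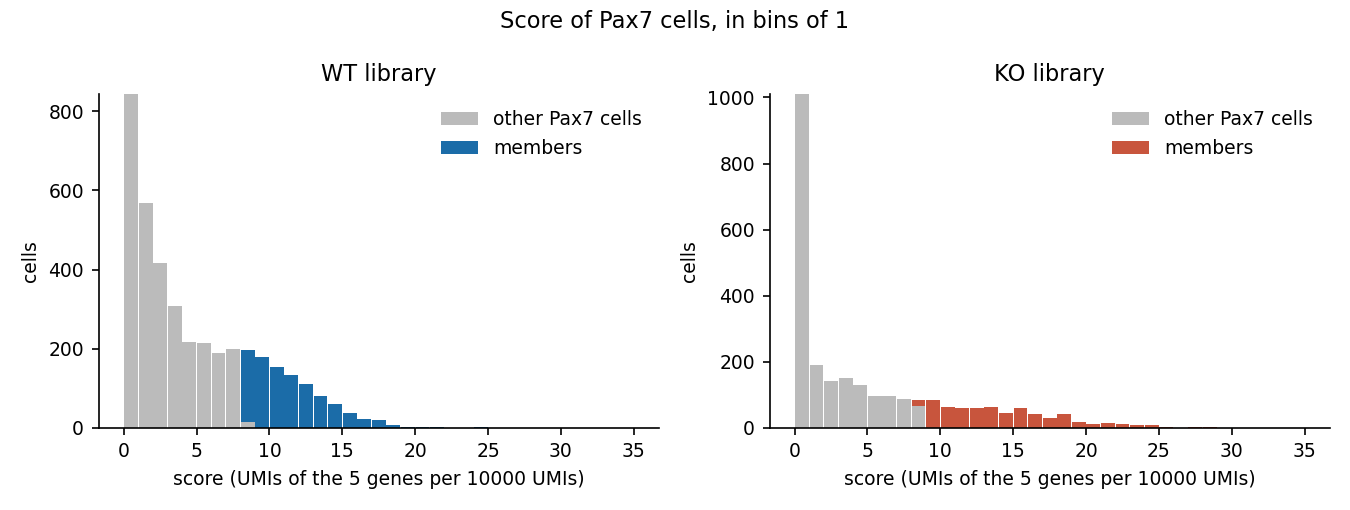
Number of Pax7 cells (vertical axis) by score (horizontal axis, UMIs of the 5 score genes per 10000 UMIs, bins of 1) in each library, with members coloured and the other Pax7 cells in grey. Members begin at 8.08 in WT and 8.80 in KO with no gap before them, and the lowest bin is the tallest in both libraries.

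The 5 score genes set the membership, so their levels are a description. Plk1 (ENSMUSG00000030867), the Polo kinase of mitotic entry and spindle assembly, was at 118 CPM in WT members and 36.5 CPM in the other WT Pax7 cells, and 109 and 23.6 CPM in KO. Ccnb1, the cyclin that activates Cdk1 at mitotic entry, was at 248 CPM in WT members and 73.5 CPM in the other WT Pax7 cells, and 248 and 47.8 CPM in KO, so the members of the 2 clones stood at nearly the same level. Aspm, a spindle pole protein, was at 129 CPM in WT members and 30.7 CPM in the other WT Pax7 cells, and 155 and 21.2 CPM in KO. Cenpf, a large kinetochore-associated protein, was at 514 CPM in WT members and 129 CPM in the other WT Pax7 cells, and 688 and 96.8 CPM in KO, and it supplied 45.4% of the score UMIs of WT members and 47.8% of those of KO members. Cdc20, the activator of the APC/C in anaphase, was at 123 CPM in WT members and 38.8 CPM in the other WT Pax7 cells, and 241 and 52.7 CPM in KO. Of the 5 genes, Cdc20 had the widest gap between the clones' members, with a KO over WT log2 ratio of 0.97.

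Each score gene can also be read in members chosen on the other 4 genes, which shared 87.7% to 97.3% of their cells with the members. Chosen in this way, members exceeded the other Pax7 cells in Plk1 by 3.00-fold in WT (2.88 to 3.13) and 4.14-fold in KO (3.92 to 4.39). Ccnb1 was 3.00-fold higher in WT and 4.74-fold in KO, Aspm 3.78-fold and 6.71-fold, Cenpf 3.30-fold and 5.86-fold, and Cdc20 2.76-fold and 4.05-fold. Each gene stood higher in cells picked without it, by a wider margin in KO than in WT. Those cells were still chosen on the other 4 genes of the rule and were largely the same cells. These values are therefore a description and give no independent support to the rule.

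The genes whose RNA followed the score most closely across cells were found by Pearson correlation with the score within each library, over 3959 WT and 2623 KO cells. Ube2c (ENSMUSG00000001403), the ubiquitin-conjugating enzyme of the APC/C, ranked first, with r = 0.868 in WT and 0.892 in KO. Tpx2, which activates Aurora A on the spindle, followed with 0.828 and 0.875, and Arl6ip1, a membrane-shaping protein of the endoplasmic reticulum, with 0.811 and 0.843. The next were Cenpe, Cks2, Hmmr, Nusap1, Prc1, Aurka and Bub1b, with r from 0.727 to 0.800 in WT and 0.772 to 0.856 in KO. All cells of a library share its preparation, and both quantities are per UMI of the same cell, so these r values describe likeness only. The middle 50% of WT members had 6.90 to 10.1 Ube2c UMIs per 10000 and a median of 8.48, against a median of 1.43 in the other WT Pax7 cells. In KO the middle 50% of members had 5.16 to 9.15 and a median of 7.26, against 0.595 in the other cells.

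Genes higher in members often had, in their promoters, the letters of the elements through which MuvB and NF-Y act. The cell cycle genes homology region (CHR) was searched as TTTGAA or TTCGAA and the NF-Y box as CCAAT, both strands, in the 250 bases before and 50 after each start, with RefSeq sequences of GRCm38.p6 matched to 125 of the 151 genes higher in members of both libraries (148 promoters). A CHR was present in 60.8% of these promoters, against 14.2% of the 7709 promoters of all genes measured in both libraries and 19.2% of all 32851 RefSeq promoters. CCAAT was present in 70.3%, against 38.5% and 37.4%, and both together in 50% (74 of 148), against 6.04% and 7.52%. At least 2 CCAAT matches were found in 42.6%, against 15.1% of those of measured genes. As both strands were read, a single CCAATTGG counts as 2 matches. The E2F site (TTTCCCGC, TTTGGCGC or TTTCGCGC) was in 4.73% of the members' promoters, near the 3.96% of all measured genes. It was in 42.9% of the 35 promoters matched to the replication machinery list. In the 49 promoters of genes lower in members of both libraries it was in 12.2%. The replication machinery promoters also held CCAAT in 57.1%, at least 2 CCAAT matches in 34.3% and a CHR in 17.1%. For the lower genes these shares were 32.7%, 20.4% and 10.2%. The E-box CAGCTG of muscle bHLH factors was in 10.8%, against 13.6% of those of measured genes. A match is a description of letters, not of binding.

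The following 6 promoters, of 3 score genes, the gene closest to the score, the kinase Aurka and, for contrast, the replication gene Mcm6, run 5′ to 3′ along the gene, and capitals mark CHR and CCAAT on either strand. The promoter of Ube2c (chr2:164769679-164769978, plus strand, GRCm38.p6) held 1 CHR and 6 CCAAT boxes, and Cdc20 (chr4:118437294-118437593, minus strand) and Aurka (chr2:172370521-172370820, minus strand) held 1 CHR and 2 CCAAT boxes each. Plk1 (chr7:122159185-122159484, plus strand) had 1 of each. Ccnb1 (chr13:100786437-100786736, minus strand) had 2 CCAAT boxes and no CHR in this window. Mcm6 (chr1:128359656-128359955, minus strand) had 2 CCAAT boxes, no CHR and 3 E2F matches, of which 2 overlap on opposite strands.
Ube2c: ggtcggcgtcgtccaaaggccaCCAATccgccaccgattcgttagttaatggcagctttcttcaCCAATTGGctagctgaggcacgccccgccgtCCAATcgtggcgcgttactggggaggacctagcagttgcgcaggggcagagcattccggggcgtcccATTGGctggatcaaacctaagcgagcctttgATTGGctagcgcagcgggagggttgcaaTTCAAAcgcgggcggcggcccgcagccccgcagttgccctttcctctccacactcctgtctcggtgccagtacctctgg
Aurka: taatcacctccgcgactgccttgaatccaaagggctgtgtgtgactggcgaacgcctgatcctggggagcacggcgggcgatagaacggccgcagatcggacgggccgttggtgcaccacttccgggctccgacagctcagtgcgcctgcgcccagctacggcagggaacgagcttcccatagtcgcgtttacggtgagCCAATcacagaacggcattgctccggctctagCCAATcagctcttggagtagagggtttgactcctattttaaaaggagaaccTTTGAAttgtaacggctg
Plk1: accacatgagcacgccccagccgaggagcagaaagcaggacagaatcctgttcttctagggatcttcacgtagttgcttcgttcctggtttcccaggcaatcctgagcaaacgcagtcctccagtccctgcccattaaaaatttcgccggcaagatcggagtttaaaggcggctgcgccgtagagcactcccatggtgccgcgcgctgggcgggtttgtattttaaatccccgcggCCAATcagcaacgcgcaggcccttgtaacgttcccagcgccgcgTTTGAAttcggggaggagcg
Cdc20: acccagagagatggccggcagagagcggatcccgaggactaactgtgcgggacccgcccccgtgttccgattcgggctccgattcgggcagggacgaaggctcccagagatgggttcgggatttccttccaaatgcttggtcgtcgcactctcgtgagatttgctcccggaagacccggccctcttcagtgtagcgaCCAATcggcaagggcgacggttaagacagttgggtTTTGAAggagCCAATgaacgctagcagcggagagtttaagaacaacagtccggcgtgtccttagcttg
Ccnb1: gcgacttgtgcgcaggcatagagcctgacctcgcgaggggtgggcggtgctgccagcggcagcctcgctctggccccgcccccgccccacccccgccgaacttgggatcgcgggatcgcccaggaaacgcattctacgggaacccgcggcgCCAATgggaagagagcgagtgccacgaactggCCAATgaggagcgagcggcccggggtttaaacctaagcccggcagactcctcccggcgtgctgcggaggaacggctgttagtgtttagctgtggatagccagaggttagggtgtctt
Mcm6: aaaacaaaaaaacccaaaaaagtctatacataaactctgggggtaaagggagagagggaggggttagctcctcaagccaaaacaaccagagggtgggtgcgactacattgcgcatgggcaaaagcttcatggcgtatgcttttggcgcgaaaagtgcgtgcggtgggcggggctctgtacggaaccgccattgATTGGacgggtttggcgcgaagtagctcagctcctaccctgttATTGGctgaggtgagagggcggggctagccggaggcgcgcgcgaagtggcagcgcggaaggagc

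Across all genes, members differed from the other Pax7 cells of their library in a small share of genes. A gene was called higher or lower at a 1.5-fold difference with at least 10 CPM in the higher group. In WT 165 of 7822 genes (2.11%) were higher and 134 (1.71%) lower in members, and in KO 285 of 8596 genes (3.32%) were higher and 258 (3.00%) lower. Of the higher genes 151 were called in both libraries, 91.5% of those of WT and 53% of those of KO. Of the lower genes 54 were shared, 40.3% and 20.9%, and no gene was called in opposite directions. Over the 7502 genes measured in both, the log2 ratios of the 2 libraries correlated at r = 0.785, a description across genes, which are not independent. The median log2 ratio over all genes with a mean of at least 1 CPM was 0.00 in WT and 0.01 in KO.

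**Figure D2:**
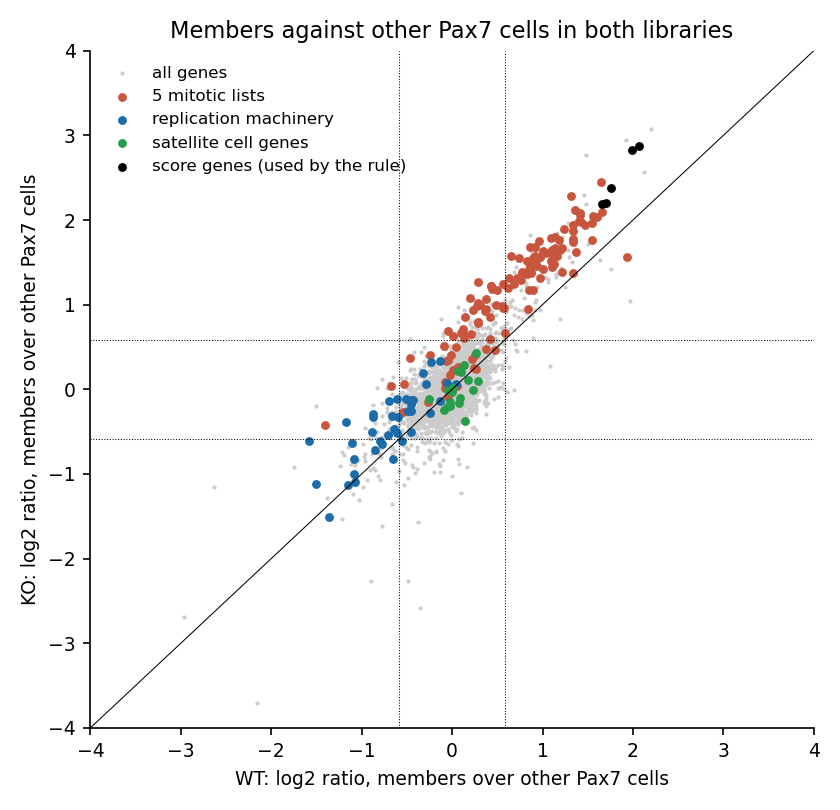
Each point is a gene, placed by its log2 ratio of members to other Pax7 cells in WT (horizontal) and KO (vertical), with listed groups coloured and dotted lines at 1.5-fold. Mitotic genes lie at the upper right and mostly above the diagonal, replication genes at the lower left, and satellite cell genes around the origin.

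The 5 lists of mitotic genes outside the score hold 128 genes, of which 125 were measured at 10 CPM or more in WT and as many in KO. In WT 69 of them (55.2%) were higher and 2 lower in members, and in KO 99 (79.2%) were higher and none lower. All 69 of WT were among the 99 of KO. These are the counts to be read against the 2.11% and 3.32% of all genes, with the reservation that genes of mitosis move together with the score genes that chose the cells.

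Kinases, cyclins and regulators of mitotic entry were higher for 12 of 22 measured genes in WT and for 21 of 22 in KO. Aurka, the kinase that matures the centrosome, was at 132 CPM in WT members against 44.7 CPM in the other WT Pax7 cells, a ratio of 2.95 (2.84 to 3.07), and at 112 against 27.1 CPM in KO, a ratio of 4.14 (3.92 to 4.37). Nek2, a kinase that separates centrosomes, was at 41.03 CPM in WT members and 16.5 CPM in the other WT Pax7 cells, and 47.6 and 9.81 CPM in KO. Cdc25c, the phosphatase that activates Cdk1, was at 57.9 CPM in WT members and 21.6 CPM in the other WT Pax7 cells, and 43.8 and 10.5 CPM in KO. Ccnf, the cyclin of an SCF ubiquitin ligase, had a similar ratio in both libraries, 2.53 in WT and 2.59 in KO. The exception was Mybl2, which encodes B-Myb. It was at 10.2 CPM in WT members against 26.9 CPM in the other WT Pax7 cells, which was called lower, and at 13.5 against 18.1 CPM in KO, which did not reach the 1.5-fold difference.

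Genes of the spindle checkpoint and the APC/C were higher for 8 of 22 in WT and 11 of 22 in KO. Ube2c was at 846 CPM in WT members against 269.7 CPM in the other WT Pax7 cells, a ratio of 3.14 (3.09 to 3.19), and at 722 against 132 CPM in KO, a ratio of 5.45 (5.32 to 5.58). Fzr1, the APC/C activator of late mitosis and G1, was at 57.3 CPM in WT members and 19.5 CPM in the other WT Pax7 cells, and 61.98 and 18.3 CPM in KO. Bub1b, the checkpoint kinase BubR1, had ratios of 2.27 in WT and 3.397 in KO, and Pttg1, the separase inhibitor securin, 1.89 in WT and 3.21 in KO. The list's median log2 ratio was 0.33 in WT and 0.63 in KO.

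Kinetochore and centromere genes were higher for 14 of 36 in WT and 29 of 36 in KO, with none lower. Cenpe, the kinesin that carries chromosomes along microtubules, was at 260.2 CPM in WT members and 88.7 CPM in the other WT Pax7 cells, and 253 and 65.04 CPM in KO. Cenpa, the histone H3 variant that marks centromeres, was at 288 CPM in WT members and 113 CPM in the other WT Pax7 cells, and 341 and 99.5 CPM in KO. Sgo2a, a shugoshin that guards cohesion at the centromere, had ratios of 2.203 in WT and 3.18 in KO. The inner kinetochore genes Cenph and Cenpk went the other way in WT without reaching 1.5-fold, with log2 ratios of -0.46 and -0.53, and stood at 0.37 and 0.06 in KO.

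Spindle motors and microtubule factors were the list with the largest share called in WT, 26 of 30 higher and 1 lower, and 27 of 30 were higher in KO. Tuba1c, an alpha-tubulin, had the widest WT ratio of the list, at 64.0 CPM in WT members against 16.8 CPM in the other WT Pax7 cells, a ratio of 3.80 (3.58 to 4.04). In KO it was at 204 against 69.0 CPM. Fam83d, which recruits casein kinase 1 to the spindle, was at 47.4 CPM in WT members and 14.96 CPM in the other WT Pax7 cells, and 43.99 and 10.3 CPM in KO. Kif2c, a microtubule-depolymerising kinesin, had ratios of 2.68 in WT and 4.22 in KO, and Arl6ip1 had 3.04 in WT and 4.11 in KO. Haus8, a subunit of the augmin complex that branches spindle microtubules, was the lower gene, at 14.6 CPM in WT members against 23.4 CPM in the other WT Pax7 cells, and was at 26.9 against 26.2 CPM in KO.

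Cytokinesis genes were higher for 9 of 15 in WT and 11 of 15 in KO. Prc1, which bundles the midzone microtubules, was at 300.4 CPM in WT members and 118 CPM in the other WT Pax7 cells, and 352 and 96.5 CPM in KO. Kif23 and Kif20a, kinesins of the midzone, had ratios of 2.54 in WT and 3.83 in KO, and of 2.37 in WT and 3.70 in KO. Chmp4b, an ESCRT-III protein used also in other membrane scission, was at 87.8 CPM in WT members and 90.6 CPM in the other WT Pax7 cells, and 75.2 and 79.95 CPM in KO, and did not reach the 1.5-fold difference in either library. Condensin and chromosome structure genes were higher for 9 of 25 and 12 of 25. Mki67, the proliferation marker that coats mitotic chromosomes, was at 261 CPM in WT members and 138 CPM in the other WT Pax7 cells, and 410.2 and 142 CPM in KO. The condensin II subunits Ncapd3 and Ncapg2 had log2 ratios from -0.34 to 0.07 and were not called. Of 14 nuclear envelope genes 2 were higher in WT and 5 in KO, among them the lamin genes Lmnb1 and Lmnb2 in KO alone past the threshold, with log2 ratios of 0.48 in WT and 0.78 in KO, and of 0.43 in WT and 1.01 in KO. The difference between libraries was not tested. The condensin and nuclear envelope counts stand beside 2.11% of all genes higher in WT and 3.32% in KO.

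Of the 151 genes higher in both libraries, 58 were in none of the gene lists. The 2 widest ratios came from this set. Pif1, a DNA helicase, was at 39.5 CPM in WT members against 8.57 CPM in the other WT Pax7 cells, a ratio of 4.601 (4.24 to 4.997), and at 21.2 against 2.53 CPM in KO, a ratio of 8.38 (7.13 to 9.902). Gas2l3, which links actin and microtubules, was at 44.1 CPM in WT members and 10.1 CPM in the other WT Pax7 cells, and 59.5 and 10.01 CPM in KO. Sapcd2, a regulator of spindle orientation, was at 21.2 CPM in WT members and 5.61 CPM in the other WT Pax7 cells, and 24.1 and 3.12 CPM in KO. Cep89, a centriolar appendage protein, and Reep4, which keeps endoplasmic reticulum off mitotic chromosomes, had ratios of 3.12 in WT and 2.89 in KO, and of 2.83 in WT and 3.304 in KO.

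Genes of DNA replication were lower in members. Of the 40 replication machinery genes measured in WT 23 were lower and none higher, and in KO 13 of 39 were lower and none higher, with median log2 ratios of -0.63 and -0.33. The KO count was 7 with cells thinned to 5000 UMIs and also 7 with the top 40% as members. These counts stand against 1.71% and 3.00% of all genes called lower. Mcm6, part of the replicative helicase, was at 55.5 CPM in WT members against 124 CPM in the other WT Pax7 cells, a ratio of 0.449 (0.4298 to 0.469), and at 67.3 against 147 CPM in KO, a ratio of 0.458 (0.437 to 0.479). Cdc6, which loads that helicase, was at 9.71 CPM in WT members and 24.9 CPM in the other WT Pax7 cells, and 6.48 and 18.4 CPM in KO. Chaf1b, a chaperone that places histones on new DNA, had ratios of 0.354 in WT and 0.459 in KO. Orc1, an origin recognition subunit, was at 13.3 CPM in WT members and 12.99 CPM in the other WT Pax7 cells, and 12.7 and 12.1 CPM in KO, and Rfc5, a clamp loader subunit, had log2 ratios of -0.13 in WT and 0.33 in KO. Neither was called.

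Genes of nucleotide supply and S phase control were lower for 10 of 32 in WT and 7 of 32 in KO, beside 1.71% and 3.00% of all genes. The lowest ratio shared by both libraries was that of Ccne2, the cyclin E2 of S phase entry, at 3.14 CPM in WT members against 24.4 CPM in the other WT Pax7 cells, a ratio of 0.129 (0.107 to 0.153), and at 5.04 against 32.5 CPM in KO, a ratio of 0.155 (0.131 to 0.181). Ung, which removes uracil from DNA, was at 4.58 CPM in WT members and 20.4 CPM in the other WT Pax7 cells, and 0.886 and 11.6 CPM in KO. Dbf4, the activating subunit of the Cdc7 kinase, was the exception in both libraries and was higher in members, at 94.8 CPM in WT members and 54.9 CPM in the other WT Pax7 cells, and 88.6 and 33.6 CPM in KO. Tk1, thymidine kinase, was at 30.4 CPM in WT members against 41.6 CPM in the other WT Pax7 cells, which was not called, and at 91.8 against 60.7 CPM in KO, where it was higher. The KO call was lost, at 91.7 against 65.03 CPM, without a set of cells high in Slpi and Crabp1 that is described with the fibroblast genes. Further genes among the 12 lowest in both libraries were Mcm2, Mcm4, Dna2 (a nuclease and helicase), Wdhd1 (a replisome factor), Dck (deoxycytidine kinase) and Tcf19, with log2 ratios between -1.75 and -0.90. Chaf1b, Mcm6 and Ccne2 were also among the 12, as were 2 genes outside replication, Cited2 (a CBP-binding regulator, log2 ratios -1.03 in WT and -1.31 in KO) and Ckb (brain-type creatine kinase, -0.91 in WT and -0.95 in KO).

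Cells with the most RNA of 5 replication genes were rarely members. When Pax7 cells were ranked by Mcm3, Mcm5, Mcm6, Cdc6 and Gins2 UMIs per 10000 and the highest 25% taken, 21 of 990 WT members (2.12%, exact interval 1.32% to 3.22%) and 17 of 656 KO members (2.59%, 1.52% to 4.12%) were among them. Of the other Pax7 cells 32.6% (31.0% to 34.4%) in WT and 32.5% (30.4% to 34.6%) in KO were.

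Replication-dependent histone genes, whose RNA normally lacks a poly(A) tail and is captured only in part by a 3' kit, did not follow the replication genes. In WT 5 of 20 were higher and 1 lower in members, and in KO 5 of 17 were higher and 1 lower. Of all genes 2.11% were higher and 1.71% lower in WT, and 3.32% and 3.00% in KO. H4c4 was at 125 CPM in WT members and 67.5 CPM in the other WT Pax7 cells, and 48.9 and 27.7 CPM in KO. H2bc18 was at 35.6 CPM in WT members and 18.8 CPM in the other WT Pax7 cells, and 12.9 and 6.296 CPM in KO, and in KO its log2 ratio of 1.03 became -0.09 when the members were limited to the top 10%. H2bc4 was called lower in KO, at 15.5 against 35.6 CPM in KO, and was at 8.89 CPM in WT members against 8.93 CPM in the other WT Pax7 cells. Many histone genes are near-identical copies, so reads may be split among them.

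**Figure D3:**
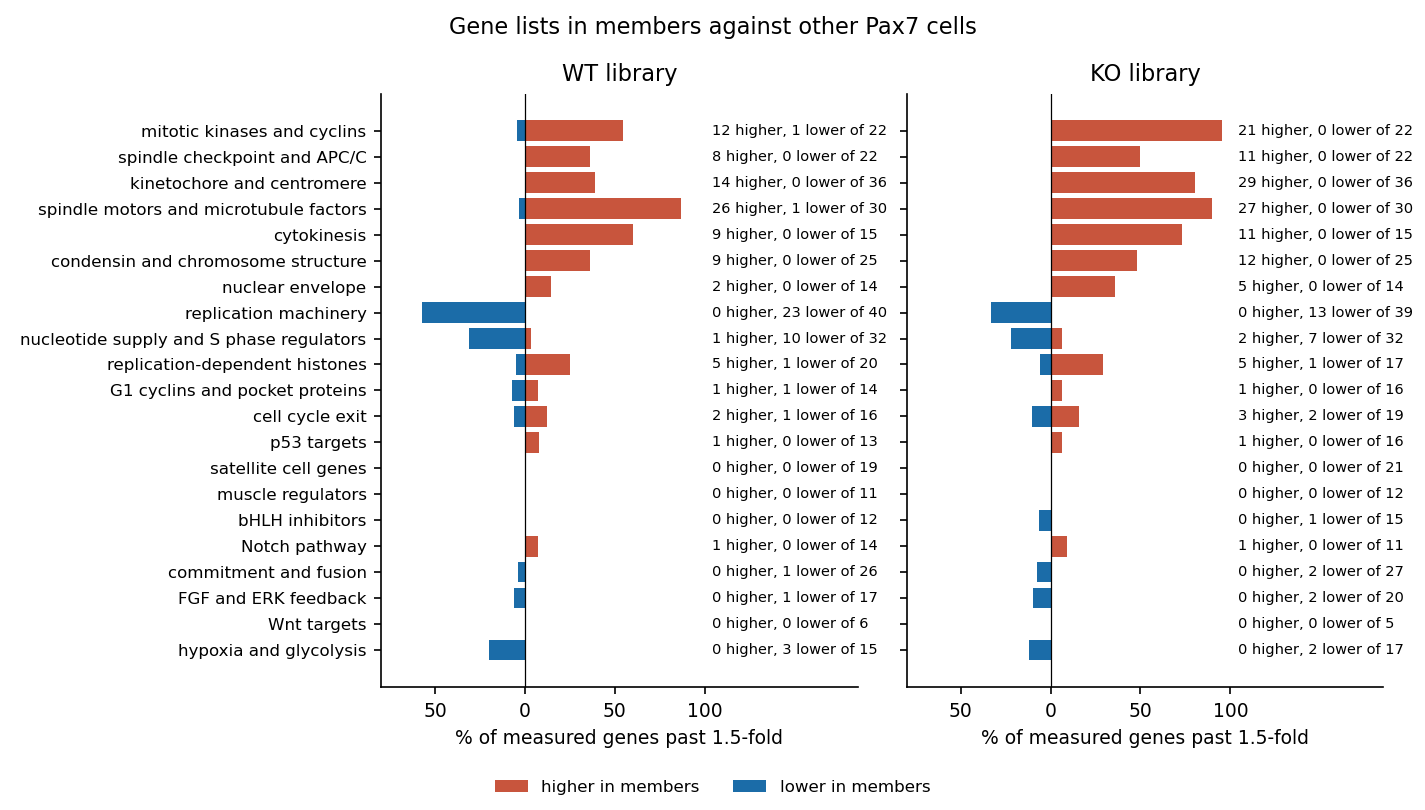
Share of measured genes of each list that were higher (to the right) or lower (to the left) in members by 1.5-fold, for WT (left panel) and KO (right panel), with the counts beside the bars. Spindle genes (26 of 30 and 27 of 30) and mitotic kinases and cyclins (12 of 22 and 21 of 22) reach far to the right and replication machinery (23 of 40 and 13 of 39) to the left, while satellite cell genes and muscle regulators have no bar.

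The Pax7 cells of each library were also cut into 4 equal bands by score, of which the members are band 4. Ube2c was at 64.4, 167, 506 and 846 CPM from band 1 to band 4 of WT and at 18.7, 70.96, 279.5 and 722 CPM in KO, and at 906 and 854 CPM in the highest 5%. Aurka was at 8.304, 33.8, 80.4 and 132 CPM in WT and 1.899, 12.6, 60.3 and 112 CPM in KO. Band 1 of KO thus had less RNA of both genes than band 1 of WT, while the 2 groups of members were nearer to each other. Ccne2 was at 34.9, 33.3, 9.29 and 3.14 CPM in WT and 29.7, 45.7, 23.8 and 5.04 CPM in KO, with its highest KO level in band 2. Mcm6 was at 162, 143, 78.7 and 55.5 CPM and 154, 163, 128 and 67.3 CPM, and the widest step down lay between bands 2 and 3 in WT and between bands 3 and 4 in KO. The rule used the score, so these levels carry no test.

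The histone list behaved differently in the 2 libraries along the score. Its summed level was 901, 2025, 2143 and 2046 CPM over the bands of WT and 2224 CPM in the highest 5%. In KO it was 184, 718, 1987 and 1232 CPM, and 631 CPM in the highest 5%. The KO level was thus highest in band 3 and lower among members, and the difference from WT was not tested. The median member had 3.01 UMIs of the list per 10000 in KO and 20.55 in WT. The median other Pax7 cell had 2.26 in KO and 13.3 in WT. The summed KO level of members was thus above that of their typical cell.

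**Figure D4:**
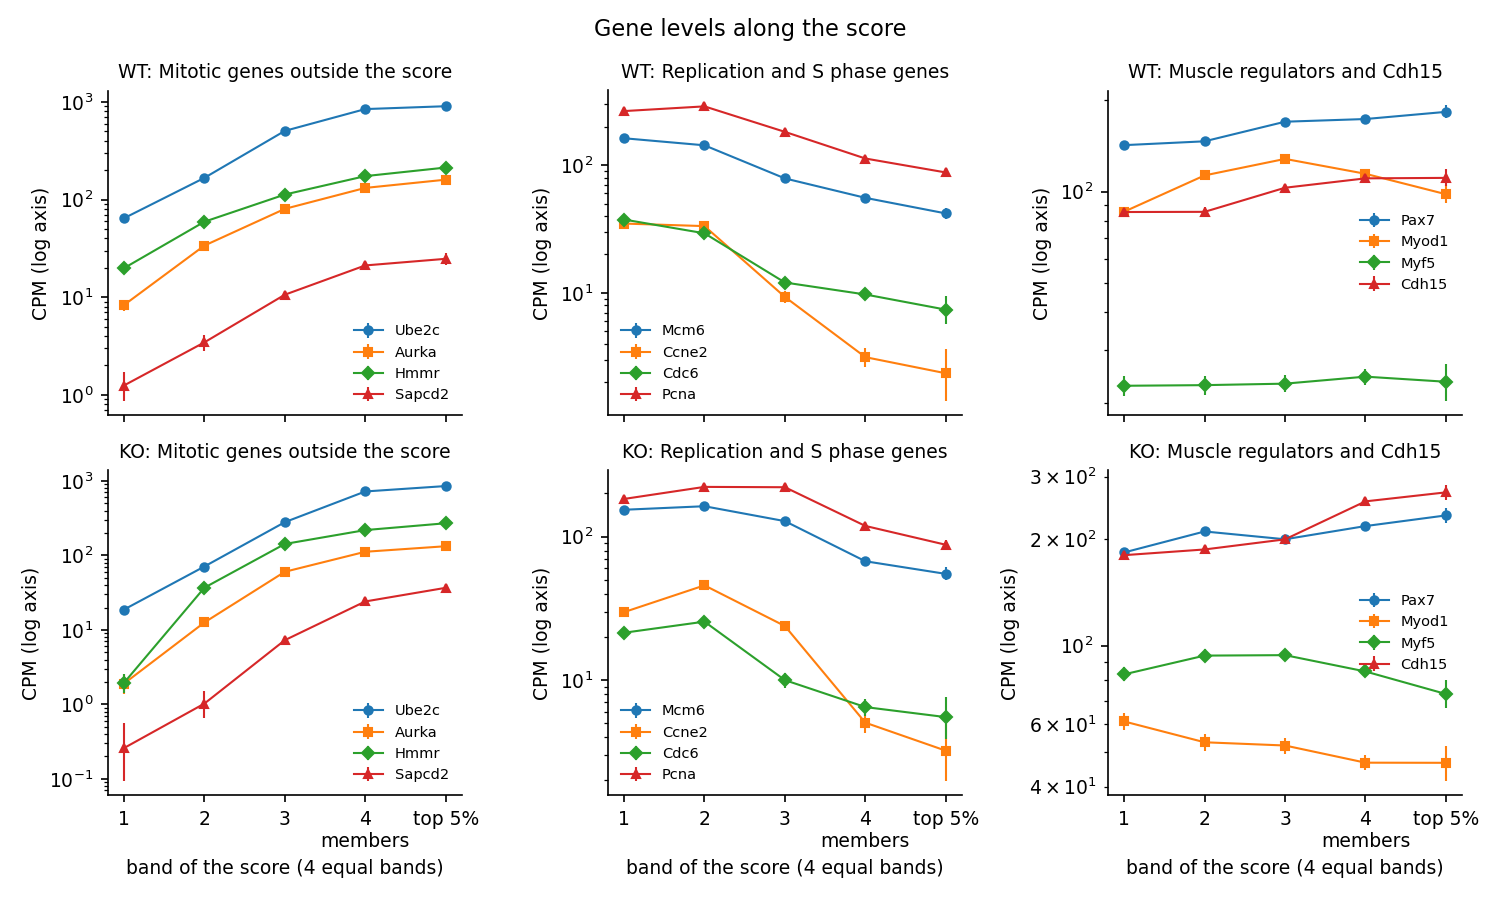
Levels in CPM (log axis, bars are 95% counting intervals) of 12 genes in the 4 bands of the score and in its highest 5%, for WT (top) and KO (bottom), with members as band 4. Ube2c stands at 64.4, 167, 506 and 846 CPM over the WT bands, Ccne2 and Mcm6 are lowest in the members, and Pax7 and Myf5 differ little beside them.

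Muscle identity genes gave no call between members and the other Pax7 cells. None of 19 satellite cell genes measured in WT and none of 21 in KO was called, nor was any of 11 and 12 muscle regulators. Of all genes 2.11% were higher and 1.71% lower in WT and 3.32% and 3.00% in KO, so a count of 0 in lists of this size is near the background. Pax7 itself, of which the rule asks at least 1 UMI, was at 173 CPM in WT members and 154 CPM in the other WT Pax7 cells, and 218 and 198 CPM in KO. Myog is among the 12 regulators of KO, but the rule limits it to 1 UMI in both groups, so its lack of a call says little. Myod1, the myoblast factor MyoD, was at 114 CPM in WT members against 111 CPM in the other WT Pax7 cells, a ratio of 1.03 (0.996 to 1.06), and at 46.7 against 55.4 CPM in KO, a ratio of 0.844 (0.795 to 0.895). Myf5, its close relative, was at 24.5 CPM in WT members and 23.1 CPM in the other WT Pax7 cells, and 84.6 and 90.5 CPM in KO. Myf6, the factor used for the conversion, was at 7.03 CPM in KO members and 0.183 CPM in WT members, and UMIs of the endogenous gene and of the vector cannot be separated. Cdh15, the adhesion protein M-cadherin, was at 110.5 CPM in WT members and 92.3 CPM in the other WT Pax7 cells, and 256 and 189.5 CPM in KO, and its log2 ratios of 0.26 in WT and 0.43 in KO did not reach the 1.5-fold difference.

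For shares of cells with a UMI, every cell was first thinned to 5000 UMIs, which left out 5 members and 7 other Pax7 cells of WT, 4 other Pax7 cells of KO, and 11 WT and 70 KO differentiated cells as too shallow. Ube2c was detected in 97.1% (95.8% to 98.02%) of WT members and 52.9% (51.1% to 54.7%) of the other WT Pax7 cells, and in 92.8% (90.6% to 94.7%) and 34.4% (32.3% to 36.5%) in KO. In differentiated muscle cells without Pax7 it was in 3.77% (1.04% to 9.38%) in WT and 2.85% (1.53% to 4.83%) in KO. These cells were taken as out of the cycle, but their division was not measured. Their median depths were 28679 and 42350 UMIs before thinning, and without thinning 18.8% and 22.05% of them held a Ube2c UMI. Myod1 was detected in 41.3% (38.2% to 44.5%) of WT members and 37.4% (35.7% to 39.2%) of the others, and in 21.04% (17.98% to 24.4%) and 23.2% (21.4% to 25.2%) in KO, and Myf5 in 11.5% (9.55% to 13.6%) and 9.76% (8.71% to 10.9%) in WT and 32.5% (28.9% to 36.2%) and 34.5% (32.4% to 36.6%) in KO. Of differentiated cells, 0.943% (0.0239% to 5.14%) in WT and 7.24% (5.03% to 10.01%) in KO held a Myf5 UMI. Without thinning, a Myf5 UMI was found in 53.03% of WT members and 45.1% of the others, and in 87.7% and 84.8% in KO. The members' intervals for Myod1 and Myf5 overlap those of the other cells in each library.

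Most genes of cell cycle exit, G1 and p53 were not called against the other Pax7 cells. Of the cell cycle exit list 2 of 16 measured genes were higher and 1 lower in WT. In KO 3 of 19 were higher, among them Cdkn2c, and 2 lower. These counts stand beside 2.11% higher and 1.71% lower of all genes in WT, and 3.32% and 3.00% in KO. Of the G1 list 1 of 14 was higher and 1, Rb1, lower in WT, and 1 of 16 was higher in KO. Cdkn3, a phosphatase that acts on cyclin-dependent kinases and is itself made in G2 and M, was higher in members of both libraries, at 30.2 CPM in WT members and 16.7 CPM in the other WT Pax7 cells, and 80.6 and 22.8 CPM in KO. Cdkn2d, an inhibitor of the G1 kinases, was also higher, with ratios of 1.77 in WT and 2.33 in KO, and Ndrg1, a hypoxia- and stress-responsive gene, was lower, with 0.564 in WT and 0.603 in KO. Gtse1, which restrains p53 in G2, was the 1 gene of the p53 list called in either library, with ratios of 1.54 in WT and 2.31 in KO. Ccng2, an atypical cyclin of arrested cells, was higher in both, at 12.1 CPM in WT members and 7.805 CPM in the other WT Pax7 cells, and 24.9 and 15.2 CPM in KO. Nrarp, a feedback inhibitor of Notch signalling, was higher in both, at 10.4 CPM in WT members and 5.89 CPM in the other WT Pax7 cells, and 23.7 and 12.7 CPM in KO, and was the 1 gene called of 14 Notch genes in WT and 11 in KO. In the hypoxia and glycolysis list Ndrg1, Slc2a1 and Bnip3 were lower in WT and Ndrg1 and Car9 in KO. No gene of the Wnt list was called.

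Markers of other cell types were mostly flat. Summed levels of the fibroblast list were 1173 CPM in WT members and 1153 CPM in the other WT cells, and 2276 and 2685 CPM in KO. Of the 20 listed fibroblast genes 10 were at 1 CPM or more in WT members and 13 in KO members, while Lum, Tcf21 and Mfap5 were at 0 in both. Smooth muscle genes summed to 1117 CPM in WT members and 1174 CPM in the other WT cells, and 1079 and 1230 CPM in KO. Of 7 measured in WT Cald1 was lower, and of 6 in KO Smtn was higher, beside 1.71% and 3.32% of all genes. Neural and glial genes summed to 144.5 to 265.4 CPM and adipocyte genes to 108.5 to 154.2 CPM over the groups. Endothelial, immune and pluripotency genes summed to at most 8.22 CPM in any group, with Kdr, Tie1, Cldn5, Ptprc, Lyz2, Adgre1, Pou5f1, Nanog and Sox2 at 0 in all members. In KO, 3 of 11 measured fibroblast genes were lower in members, beside 3.00% of all genes. They were Dcn (1.68 against 15.9 CPM), Twist2 (3.57 against 18.2 CPM) and Fn1 (221 against 448 CPM).

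A set of KO cells high in Slpi and Crabp1 had a smaller share among members than among the other Pax7 cells. At 1 or more UMIs of these genes per 10000, 152 of 2623 KO Pax7 cells qualified, 143 of the others (7.27%, exact interval 6.16% to 8.51%) and 9 members (1.37%, 0.629% to 2.59%), against 5 of 3959 in WT. Without them, an alternative added after the data were seen that re-chose members in both libraries, 169 genes were lower in KO members in place of 258. No fibroblast gene was called. Dcn was then at 0.164 against 0.489 CPM and Twist2 at 0.753 against 2.01 CPM in KO, levels too low to be called. Their log2 ratios of -1.58 and -1.42 had the same direction as before but were smaller. Slpi, which chose the cells, is not compared here. The log2 ratio of Spp1, the matrix protein osteopontin, from -2.26 to -0.36, that of Ctsl, a lysosomal protease, from -1.57 to -0.29 and that of Fn1 from -1.02 to -0.43. Ube2c stayed at 2.31 against 2.45, and 14 replication genes were lower in KO in place of 13. Of other genes whose calls are given, Tk1, Cdkn2b and Slc22a23 in KO and Bnip3 in WT lost them.

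The members of the 2 clones were then set against each other, with a call at 2-fold and at least 10 CPM. Of 8673 genes 1238 (14.3%) were higher and 382 (4.40%) lower in KO members, a share of 76.4% higher among the called genes. This share depends on the scaling. It was 63.2% (1003 higher, 583 lower) with TMM and 59.9% (960 and 644) with median-of-ratios scaling, as the median log2 ratio of all measured genes went from 0.10 to -0.09 and -0.14.

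Mitotic RNA was close between the clones' members. Both groups were chosen by a high score of mitotic genes, so this nearness may follow from the rule and is a description only. Of the 125 measured genes of the 5 mitotic lists 5 (4%) were higher in KO members and none were lower. Of all genes 14.3% were higher and 4.40% lower. With TMM and with median-of-ratios scaling 4 were higher and none lower. Their median log2 ratio was 0.09, beside 0.10 for all measured genes. With TMM and median-of-ratios scaling it was -0.10 and -0.14, beside -0.09 and -0.14 for all measured genes. Its sign thus depends on the scaling, as does that of all genes. Ube2c stood at 722 CPM in KO members against 846 CPM in WT members, a ratio of 0.853 (0.839 to 0.867), and Aurka at 112 and 132 CPM, a ratio of 0.849 (0.815 to 0.885). The 5 higher genes were Rhoc (a small GTPase), Tuba1c, Mad2l2 (a translesion synthesis subunit related to Mad2), Ska1 and Zwint (kinetochore proteins), of which Ska1 and Zwint were chosen after their values were seen.

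Many genes of the cell cycle exit and p53 lists were higher in KO members than in WT members. Of 19 genes of the cell cycle exit list 14 were higher and 0 lower, beside 14.3% of all genes, and their median log2 ratio was 1.36. Of 16 p53 target genes 9 were higher and 0 lower, and their median was 1.27 (1.13 over the 19 listed genes with a mean of at least 1 CPM). The lists are not separate, since Cdkn1a and Trp53inp1 are among the higher genes of both. The higher exit genes also include Cdkn3, made in G2 and M, and the stress-responsive Ndrg1. With TMM 13 and 8 genes of these lists were higher, and with median-of-ratios scaling 12 and 8, again with 0 lower. Cdkn1c, the CDK inhibitor p57, was at 2590 CPM in KO members and 364 CPM in WT members, a ratio of 7.12 (7.005 to 7.25). Cdkn1a, the p53-induced inhibitor p21, was at 323 and 88.03 CPM, and Cdkn2a, which encodes p16 and p19ARF, at 419 and 109.7 CPM. These 3 genes were chosen after their values were seen. Cdkn2b, the inhibitor p15, was at 34.8 and 3.32 CPM. Cdkn1c and Cdkn1a were as high in the other KO Pax7 cells, at 2656 and 320.0 CPM, so within KO they did not separate members from the rest. Cdkn2b was lower in KO members than in the other KO cells, at 53.8 CPM in the latter, a call that was lost without the cells high in Slpi and Crabp1 (a log2 ratio of -0.22).

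**Figure D5:**
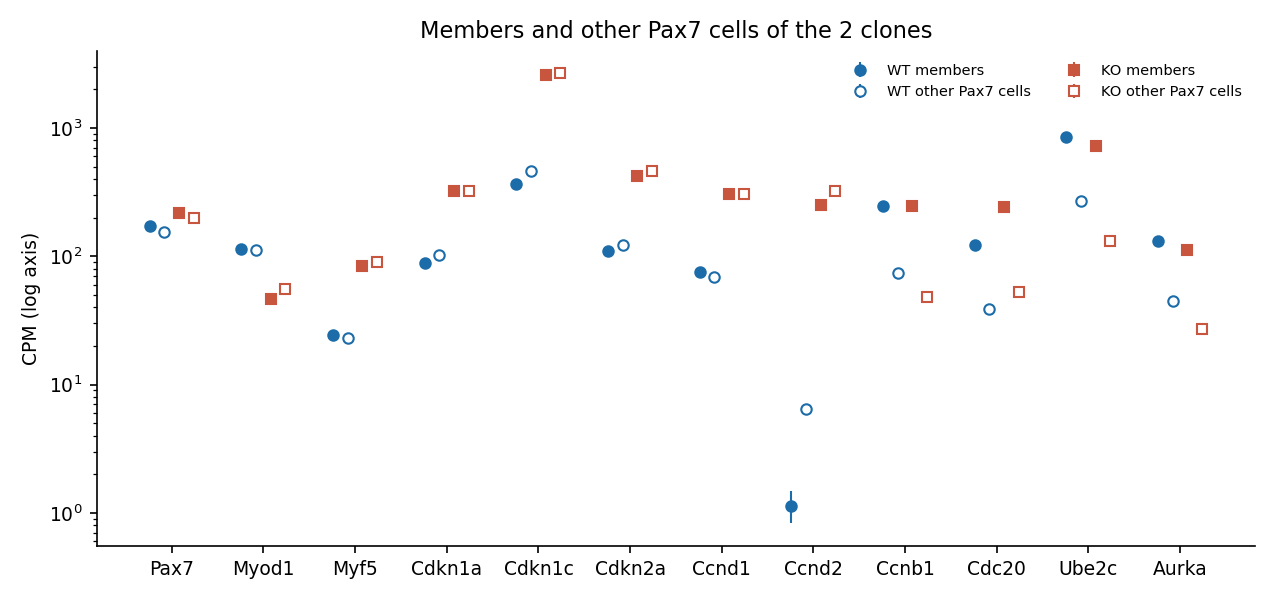
Levels in CPM (log axis, bars are 95% counting intervals) of 12 genes in members (filled) and other Pax7 cells (open) of WT (circles) and KO (squares). Ccnb1, Cdc20, Ube2c and Aurka separate members from other cells in both clones, while Cdkn1c, Cdkn1a, Cdkn2a, Ccnd1, Ccnd2, Myod1 and Myf5 separate the clones.

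Of 17 G1 cyclins and pocket proteins 5 were higher in KO members and 1, Mycn, was lower, beside 14.3% and 4.40% of all genes. Their median log2 ratio was 0.08, beside 0.10 for all measured genes. With TMM and with median-of-ratios scaling 3 were higher and 2 lower. Mycn, the transcription factor N-Myc, was chosen after its value was seen. Ccnd2, cyclin D2, was at 252 CPM in KO members and 1.12 CPM in WT members, where the other WT cells had 6.45 CPM. Cdk6, a kinase partner of the D cyclins, was at 117 and 2.52 CPM. Of 22 histone genes measured 10 were lower in KO members (11 with TMM and 12 with median-of-ratios scaling), beside 4.40% of all genes. Their median log2 ratio was -0.75, and -1.15 over the 42 listed genes with a mean of at least 1 CPM. The lower genes included H4c8 (a log2 ratio of -1.74) and H2bc18 (-1.47). Of 21 genes of FGF and ERK feedback 10 were higher and 1 lower, among them Fos at 112 and 10.1 CPM and Dusp6, a phosphatase of ERK, at 19.0 and 6.96 CPM. Of 17 hypoxia and glycolysis genes 10 were higher and 1 lower. The counts of both lists also stand beside 14.3% higher and 4.40% lower of all genes. Under the other scalings 9 FGF and ERK genes were higher and 1 lower, and 8 or 9 hypoxia genes were higher and 2 lower.

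Satellite cell genes were higher in KO members for 9 of 22 and lower for 3, beside 14.3% and 4.40% of all genes. With TMM 6 were higher and with median-of-ratios scaling 5, with 3 lower in each, where 1003 of 8638 and 960 of 8643 of all genes were higher. Cdh15 was at 256 CPM against 110.5 CPM in WT members, Sdc4, a syndecan, at 85.2 against 27.99 CPM, and Itga7, the laminin-binding integrin of muscle, at 78.1 against 38.99 CPM. Itga7 lay at the 2-fold threshold and lost its call under both other scalings, and Cdh15 lost its call with median-of-ratios scaling. Calcr, the calcitonin receptor of quiescent satellite cells, was at 0.122 CPM in KO members and 12.6 CPM in WT members. Myf5 was higher in KO members, at 84.6 against 24.5 CPM, a ratio of 3.45 (3.21 to 3.71), and Myod1 and Mef2c were lower, at ratios of 0.408 (0.386 to 0.433) and 0.329 (0.296 to 0.365). Of 9 fibroblast list genes 5 were higher in KO members, among them Fap (73.6 against 15.7 CPM) and Ly6a (19.2 CPM, with no UMI in WT members), and Postn was lower.

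The widest differences between the clones' members lay in genes that are not of mitosis. Igfbp6, Hecw2, Serpinb1a, Ccnd2, S100a4, Lgals3, Slpi, Emp2, Pcdh15 and Ly6e were the highest in KO members. The level of Slpi depended on the cells high in Slpi and Crabp1, which were 9 KO members (1.37%). Without those cells, which Slpi helped to choose, it was at 7.395 CPM in KO members. S100a4, a calcium-binding protein, was at 432 against 2.31 CPM, Lgals3, the lectin galectin-3, at 391 against 2.22 CPM, and Pcdh15, a protocadherin, at 699 against 9.598 CPM. Alx1, Cntn5, Cdh6, Nnat, Tnnt1, Grip1, Ryr3, Itga4, Cited1 and Mrln were the lowest. Alx1, a homeobox gene of cranial mesenchyme, had 119 CPM in WT members and no UMI in KO members. Tnnt1, slow troponin T, stood at 363 CPM in WT members and 22.9 CPM in KO members, and Nnat, neuronatin, at 503 and 22.97 CPM.

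The contrast of members with other Pax7 cells was larger in KO than in WT for many mitotic genes. By the ratio of the KO ratio to the WT ratio, 124 of 7502 genes (1.65%) were at least 1.5-fold higher and 40 (0.533%) lower, and of the 125 mitotic list genes 50 (40%) were higher and none lower. With the top 10% as members 42 of all genes were higher and 50 lower, and with the top 40% 260 were higher and 56 lower. Among the 6 highest were Sapcd2 (a ratio of ratios of 2.05), Nek2 (1.95) and Cdkn3 (1.95), with Tk1 (2.08), Fam111a, a protease at replication forks (2.48), and Neil3, a DNA glycosylase (1.90). Nek2 was at 47.6 and 41.03 CPM in KO and WT members, and at 9.81 and 16.5 CPM in the other cells. For this gene the clones differed more among the other Pax7 cells than among members. The KO comparison cells also held more cells with a score of 0, 28.1% against 11.5%, and more cells high in Slpi and Crabp1. Without the latter 70 genes were higher and 24 lower. The part of the score-0 cells in the difference was not tested.

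The lowest ratios of ratios were those of Spp1, Slc22a23 (an organic ion transporter of the SLC family), Ctsl, Kirrel3 (a cell adhesion protein), Fn1 and Slit2 (a secreted guidance protein). Spp1 was at 17.1 CPM in WT members and 31.9 CPM in the other WT Pax7 cells, and 568 and 2724 CPM in KO. Kirrel3 was at 77.2 CPM in WT members and 68.6 CPM in the other WT Pax7 cells, and 23.4 and 44.3 CPM in KO, and Slit2 at 15.5 CPM in WT members and 26.3 CPM in the other WT Pax7 cells, and 60.1 and 184 CPM in KO. Without the cells high in Slpi and Crabp1, Kirrel3 in KO had a log2 ratio of -1.02 and Slit2 of -1.14, while Spp1, Ctsl, Fn1 and Slc22a23 no longer reached the 1.5-fold difference. For Slc22a23 the KO log2 ratio went from -1.23 to -0.58 and the ratio of ratios from 0.399 to 0.625.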

How the data were processed

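The authors deposited whole UMI counts per gene and barcode. Per the file headers they come from Cell Ranger 7.2.0. The submitters' processing notes also name Seurat and GRCm39, with no role, and the annotation release is not given in the sources used here. They list 25906 genes and 8191 WT and 7670 KO barcodes. The members and all 30 gene lists were chosen with earlier results of these data known. Genes named are the score genes and muscle regulators, up to 4 per list with the largest ratios and further ones where a list goes both ways, and the highest and lowest genes of each comparison. UMIs were summed over cells and scaled to CPM with exact 95% Poisson intervals. Ratios have the interval conditional on the summed count, shares the Clopper-Pearson interval, and a count of 0 takes 3 counts. List medians use genes with a mean of at least 1 CPM. The calling script was checked on simulated Poisson counts, which hold no variation between cells or libraries. Doublets were kept: Scrublet (scanpy 1.11.5, expected rate 0.06) called 2 of 7318 WT cells, too few to be relied on, and 144 of 5782 KO cells. Cells in the top 6% of its scores were 1.01% of WT and 3.66% of KO members, against 2.53% and 3.91% of the other Pax7 cells. TMM factors came from edgeR 4.0.16 and size factors from DESeq2 1.42.0, in R 4.3.3, without tests.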

Additional observations from a re-analysis of the deposited data

Results flagged for a closer look

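For 10 genes the ratio of members to other Pax7 cells pointed in opposite directions in the 2 clones and differed by at least 1.5-fold. None of these differences was tested, since each clone gave 1 library. The values are the KO ratio divided by the WT ratio, with the log2 ratio of each clone.

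Tk1, thymidine kinase, stood at 2.08, with -0.46 in WT and 0.60 in KO. Neil3 stood at 1.9 (-0.60 and 0.32), Cenph at 1.78 (-0.46 and 0.37), Haus8 at 1.65 (-0.68 and 0.04) and Cenpk at 1.5 (-0.53 and 0.06). Fos, an immediate early gene, stood at 1.81 (-0.83 and 0.02). Of these 6 genes Neil3, Haus8 and Fos passed the 1.5-fold difference in WT, as lower, and Tk1 passed it in KO, as higher. The other ratios did not reach it.

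Slc22a23 stood at 0.399, with 0.10 in WT and -1.23 in KO. Kirrel3 stood at 0.471 (0.17 and -0.92), Nnat at 0.616 (0.05 and -0.65) and Ryr3, a calcium channel of the sarcoplasmic reticulum, at 0.619 (0.11 and -0.58). The Nnat direction in KO did not hold after thinning. Without the cells high in Slpi and Crabp1, Haus8 (-0.07) and Cenpk (-0.03) in KO had the same direction as in WT, Tk1 in KO lost its call (0.50), and Slc22a23 stood at 0.625, with 0.09 in WT and -0.58 in KO, where its call was lost.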

How the results depend on the processing

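No paired analysis was possible because each clone gave 1 library and the labels carry no replicate numbers. Of 2890 gene values under the alternatives 1839 moved by less than their counting interval, 1049 moved and 2 reversed: Nnat in KO went to 0.24 after thinning to 5000 UMIs and H2bc18 in KO to -0.09 with the top 10% as members. The cause of the changes was not tested unless stated.

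The counts of genes that changed by over 1.5 times follow, in the order reported. With a fold of 2 within and 1.5 between clones, WT had 71 higher and 27 lower, KO 155 and 70, KO against WT members 2168 and 1013, and the ratio of ratios 5 and 8, with 36 mitotic list genes higher in WT and 9 (WT) and 4 (KO) replication genes lower. Without a minimum level, where counting noise enters, these were 2513 and 2097, 2772 and 2152, 4793 and 1755, and 2165 and 2220. Against the lowest-scoring cells only (50% of all Pax7 cells), 285 genes were lower in WT, 453 higher and 418 lower in KO, and the ratio of ratios gave 339 and 86. After thinning it gave 297 and 137, with 7 replication genes lower in KO. With the top 40% as members 260 genes were higher by the ratio of ratios and 7 replication genes lower in KO, and with the top 10% 42 were higher. TMM and median-of-ratios scaling gave 583 and 644 genes lower in KO members. Without cells high in Slpi and Crabp1, added after the data were seen, 169 genes were lower in KO and the ratio of ratios gave 70 and 24. Other counts stayed within 1.5 times, also with Pax7 at 2 UMIs, a score without Cenpf, means over cells, top doublet scores removed and stricter cell filters. Genes under 10 CPM were not called, since depth limits them.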
